A study of Mus musculus with 8 samples.

Results

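The data are RNA-seq counts of 9 genes typical of microglia and other phagocytes (*C1qa*, *C1qb*, *C1qc*, *Csf1r*, *Cx3cr1*, *P2ry12*, *Tmem119*, *Cd68* and *Aif1*), of 38031 genes counted in mouse primary motor cortex (M1). The 9 were chosen by name, and each was represented by its annotated transcript with the lowest Ensembl number. The study asked what a lowered level of the transcription factor *Fezf2* does to transcription in mature M1. Male Swiss Webster mice, an outbred stock, received lentivirus in M1 at P21-P25, and tissue was taken at P49-P53 after perfusion with saline. In 4 samples the vector carried *Fezf2 shRNA*, and in the other 4 it carried *non-silencing shRNA* (control). Both vectors also carried mCherry, and a *Synapsin I* promoter, active in neurons, drove the shRNA. M1 was dissected by its mCherry signal, so each library of total RNA holds every cell type of the piece, including vessels and any meninges. All 8 samples had been injected and no uninjected tissue was sequenced. The 2 treatments can thus be compared with each other, but a response of phagocytes to the injection itself cannot be measured here.

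Microglia are the resident phagocytes of the brain. They depend on signals through the receptor CSF1R, survey the tissue with motile processes, sense nucleotides through P2RY12 and receive the neuronal ligand CX3CL1 through CX3CR1. They are also the main source of C1q in the brain, the first component of the classical complement cascade, which marks debris and some synapses for uptake. On injury microglia are known to lose P2RY12 and TMEM119 and to gain lysosomal CD68. Some microglial markers, CD68 among them, can be shared with macrophages of the meninges and vessels.

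The 8 libraries held 54684016 to 58003814 counts on all 38031 genes. *Fezf2*, the gene targeted by the shRNA, had 688, 767, 735 and 702 normalized counts in control replicates 1 to 4 and 621, 583, 568 and 592 in *Fezf2 shRNA* replicates 1 to 4. Normalized counts are read counts divided by each library's effective size and multiplied by the mean size. Every *Fezf2 shRNA* library lay below every control library, with means of 591 ± 22.1 and 723 ± 35.4 (SD, n = 4 each). On the log2 scale the difference was -0.29 (95% interval -0.46 to -0.12), with an adjusted p of 0.0824 in edgeR. That missed the threshold of the call, an adjusted p of at most 0.05 with a log2 fold change of at least 0.2 in size, whereas DESeq2 gave an adjusted p of 0.0256. With an offset for gene length, described below, it was -0.18 (adjusted p 0.458), under the minimum size. The exact two-sided permutation test over the 8 libraries gave p = 0.0286, the smallest it can give.

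None of the microglia and phagocyte genes passed the call. Of the 9, 7 passed a filter of more than 8 CPM (counts scaled by library total) in 4 or more libraries and were tested among 9959 genes, of which 208 (2.09%) were called. In edgeR 0 of the 7 were called and 0 had an unadjusted p under 0.05, against 19.6% of all genes tested, and DESeq2 called 0 of the 7 and 7.55% of all. In 0 of the 7 did the treatments fail to overlap, against 11.8% of all genes tested. *Cd68* and *Aif1* had too few counts for that filter and were tested among 16481 genes with more than 1 CPM. There 84 genes (0.51%) were called and 0 of the 9, again with 0 at an unadjusted p under 0.05 and 0 called by DESeq2. The 208 calls over all genes depended on the libraries, with 0 without control replicate 1, 4 without control replicate 4, and 13, 5 and 17 without *Fezf2 shRNA* replicates 1, 3 and 4 in turn. There were 368 and 130 without control replicates 2 and 3, 269 without *Fezf2 shRNA* replicate 2, and 1 with an offset for gene length, which fits each library's trend of log ratio with gene length and removes it. The median log2 fold change of the 7 was 0.08, beside -0.03 for all genes tested, with 5 above 0 and 2 below. In bulk tissue, fewer cells of a type and less RNA per cell cannot be told apart.

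The 3 chains of C1q had the highest fold changes among the members. *C1qa*, the A chain, had 1731, 1026, 1281 and 1154 normalized counts in control replicates 1 to 4 and 1511, 1845, 1038 and 1885 in *Fezf2 shRNA* replicates 1 to 4. *C1qb*, the B chain, had 978, 650.3, 859 and 577 in the controls and 1000.1, 1077, 504 and 984 with *Fezf2 shRNA*. *C1qc*, the C chain, had 835, 498, 553 and 548 in the controls and 618, 807, 416 and 952 with *Fezf2 shRNA*. Control replicate 1 was the highest control for each chain, and *Fezf2 shRNA* replicate 3 was the lowest of its treatment for each, so that the treatments overlapped. The log2 fold change of *C1qa* was 0.27 (95% interval -0.16 to 0.71, adjusted p 0.449). It was 0.22 (-0.29 to 0.73, adjusted p 0.623) for *C1qb* and 0.20 (-0.33 to 0.73, adjusted p 0.673) for *C1qc*. All of these differences were smaller than the spread within a treatment, which reached 2.14-fold for *C1qb* and 2.29-fold for *C1qc* among the *Fezf2 shRNA* libraries. Without *Fezf2 shRNA* replicate 3 the fold change of *C1qa* was 0.43, with an unadjusted p of 0.024 and an adjusted p of 0.254, the lowest over its alternatives (the highest was 0.711). In the same fit *C1qb* had 0.42 (unadjusted p 0.031, adjusted p 0.28), and without control replicate 1 *C1qa* had 0.44 (unadjusted p 0.038, adjusted p 0.286). Leaving out *Fezf2 shRNA* replicate 4 instead lowered *C1qa*, *C1qb* and *C1qc* to 0.17, 0.17 and 0.012. There *C1qc* was below *Csf1r* (0.051), so the order of the members depended on that library. The 3 genes lie beside each other on the minus strand of chromosome 4, within 18.7 kb (GRCm38, chr4:136880129-136898803), and their counted intervals do not overlap.

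**Figure D1:**
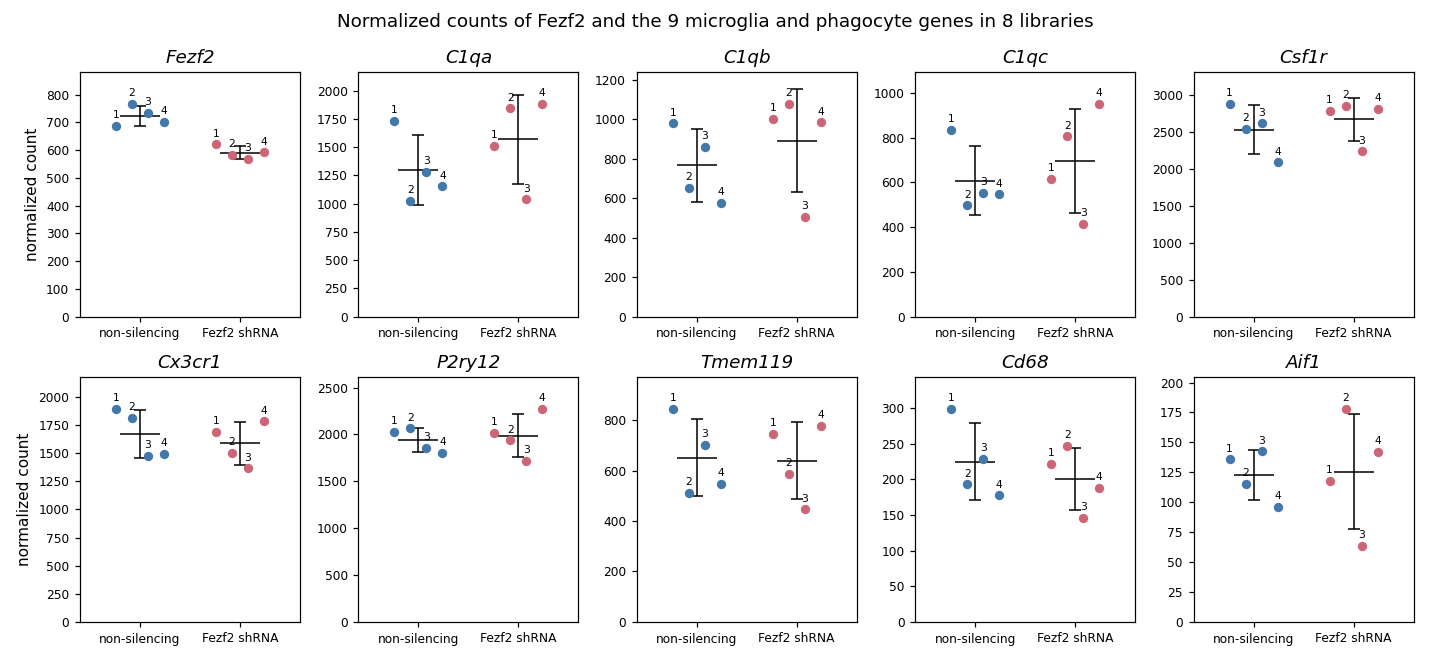
Normalized counts of *Fezf2* and of the 9 microglia and phagocyte genes in each library, numbered by replicate, with the mean and SD of each treatment (n = 4). For *Fezf2* the treatments are apart, at 568 to 621 against 688 to 767, and for each of the 9 other genes they overlap.

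The receptors were steadier. *Csf1r* (chr18:61105572-61131134), the receptor for the growth factors CSF1 and IL-34 that microglia need to survive, had 2882, 2542, 2619 and 2089 normalized counts in control replicates 1 to 4 and 2784, 2850.1, 2236 and 2813 in *Fezf2 shRNA* replicates 1 to 4. Its log2 fold change was 0.08 (95% interval -0.16 to 0.31), and the lowest library of each treatment was control replicate 4 and *Fezf2 shRNA* replicate 3. *Cx3cr1* (chr9:120048683-120068296), the receptor for CX3CL1, had 1893, 1813, 1479 and 1493 in the controls and 1693, 1505, 1365 and 1783 with *Fezf2 shRNA*. Here control replicates 1 and 2 lay above control replicates 3 and 4, and *Fezf2 shRNA* replicate 3 lay below every control, with the other *Fezf2 shRNA* libraries inside the range of the controls. The log2 fold change of *Cx3cr1* was -0.07 (-0.31 to 0.16). *P2ry12*, the ADP receptor of homeostatic microglia, had 2025, 2063, 1855 and 1805 in the controls and 2014, 1936, 1715 and 2271 with *Fezf2 shRNA*. *Fezf2 shRNA* replicates 3 and 4 were its lowest and highest libraries, and its log2 fold change was 0.03 (-0.16 to 0.23). Over these 3 receptors the 95% intervals thus reached from -0.31 (*Cx3cr1*) to 0.31 (*Csf1r*) on the log2 scale, and none reached that size in both directions.

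The counts of *P2ry12* can hold reads of another gene. Its interval of 46473 bp (chr3:59216359-59262831, minus strand) lies wholly within the longest transcripts of *Med12l* on the plus strand, and reads were assigned by interval. A shorter annotated transcript of *P2ry12*, with an interval of 3900 bp of which 56.5% is exonic, had a mean of 1195 normalized counts in the controls and 1173 with *Fezf2 shRNA*, a ratio of 0.982 in place of 1.02. *Med12l*, named after its values were seen and counted over a transcript that ends before *P2ry12*, had 1378 to 1556 normalized counts in the controls and 1599 to 1797 with *Fezf2 shRNA*. For *Cx3cr1* a second annotated transcript spans 166668 bp and had 5240 and 5085 mean normalized counts, and the 19614 bp transcript was used. No other member shares its interval with another counted gene apart from *Csf1r*, which holds the microRNA gene *Mir6983*.

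*Tmem119* (chr5:113793729-113800516), a membrane protein used to tell microglia from other macrophages, had 845, 513, 703 and 549 normalized counts in control replicates 1 to 4 and 746, 588, 447 and 777 in *Fezf2 shRNA* replicates 1 to 4. Its log2 fold change was -0.03 (95% interval -0.46 to 0.40), and it was 0.08 with the offset for gene length. *Cd68* (chr11:69664213-69666153), a glycoprotein of lysosomes in phagocytes, had 299, 193, 229 and 178 in the controls and 222, 247, 146 and 188 with *Fezf2 shRNA*. It had the lowest fold change of the 9, at -0.16 (-0.61 to 0.29), and control replicate 1 stood highest. Without that library the log2 fold change of *Cd68* was 0.01. *Aif1* (chr17:35170994-35173278), which encodes the cytoskeletal protein IBA1 used to stain microglia, had 136, 116, 143 and 96.3 in the controls and 118, 178, 63.7 and 142 with *Fezf2 shRNA*. Its *Fezf2 shRNA* libraries differed 2.79-fold among themselves, around a log2 fold change of 0.03 (-0.58 to 0.64). The fold changes of *Cd68* and *Aif1* come from the test among genes with more than 1 CPM. In the exact two-sided permutation test over the 8 libraries, the p of the 9 genes ran from 0.343 (*C1qa*) to 0.971 (*Aif1*).

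**Figure D2:**
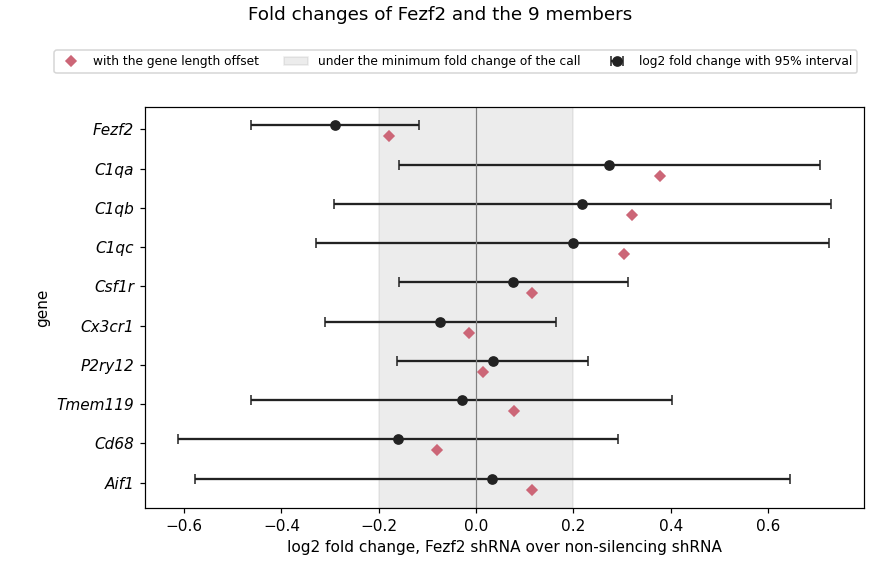
Log2 fold change (*Fezf2 shRNA* over *non-silencing shRNA*, horizontal axis) of *Fezf2* and the 9 members with 95% intervals, and the same with an offset for gene length (diamonds). Each interval of the 9 members includes 0, whereas that of *Fezf2* runs from -0.46 to -0.12.

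By level per length, *C1qa* was the most abundant member, at 24.4 ± 5.81 CPM per kb of exon (SD over 8 libraries). *P2ry12* (15.5), *C1qb* (13.5), *Csf1r* (11.9), *C1qc* (9.62) and *Cx3cr1* (7.70) followed, and neighbours among these 5 differed by less than the larger of their SDs. *Tmem119* had 5.11, *Cd68* 3.07 and *Aif1* 2.59, and the last 2 did not differ beyond their spread. These levels count all reads of the interval, introns included, and that of *P2ry12* can hold reads of *Med12l*. Its 3900 bp transcript had 10 ± 1.22 CPM per kb of exon, which is below *C1qb* and *Csf1r*. *Tmem119* was 2.42 times the larger SD below *Cx3cr1*, the widest step of the order by that measure.

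For each of the 7 members tested, the SD within treatments was larger than the difference between treatments on the log2 scale. Within treatments, the SD of log2 CPM was 0.36 for *C1qa*, 0.44 for *C1qb*, 0.44 for *C1qc* and 0.35 for *Tmem119*, against a median of 0.12 over the 9959 genes. That placed these 4 genes at or above percentile 97.2 of all genes tested. *Csf1r* (0.18), *Cx3cr1* (0.18) and *P2ry12* (0.14) lay at percentiles 80.9, 80.2 and 59.8. Counting error alone would give 0.04 for *C1qa* and 0.06 for *C1qc*. *Fezf2* itself, with 0.06, lay at percentile 7.18.

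The same libraries were high or low for most members. Control replicate 1 was above the 8-library mean for 9 of 9 members, *Fezf2 shRNA* replicate 4 for 8, *Fezf2 shRNA* replicate 1 for 7 and *Fezf2 shRNA* replicate 2 for 6. Control replicate 3 was above it for 5, control replicate 2 for 2, and control replicate 4 and *Fezf2 shRNA* replicate 3 for 0. *Fezf2 shRNA* replicate 3 was the lowest of all 8 libraries for 7 of 9 members, the exceptions being *C1qa* and *Csf1r*. The mean log2 deviation of the 9 members was 0.29, -0.15, 0.02 and -0.25 in control replicates 1 to 4 and 0.10, 0.21, -0.47 and 0.25 in *Fezf2 shRNA* replicates 1 to 4. Its treatment means, -0.02 in the controls and 0.02 with *Fezf2 shRNA*, differed by much less than its SD of 0.23 and 0.34. The summed normalized counts of the 9 ran from 8488 to 11624 in the controls and from 7931 to 11794 with *Fezf2 shRNA*. The share of mitochondrial counts also differed by library. It was 30.6%, 29.1%, 28.3% and 28.2% in control replicates 1 to 4 and 30.8%, 29.7%, 27.7% and 30.0% in *Fezf2 shRNA* replicates 1 to 4, lowest in the library where the members were lowest. Its part in the members' values was not tested.

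**Figure D3:**
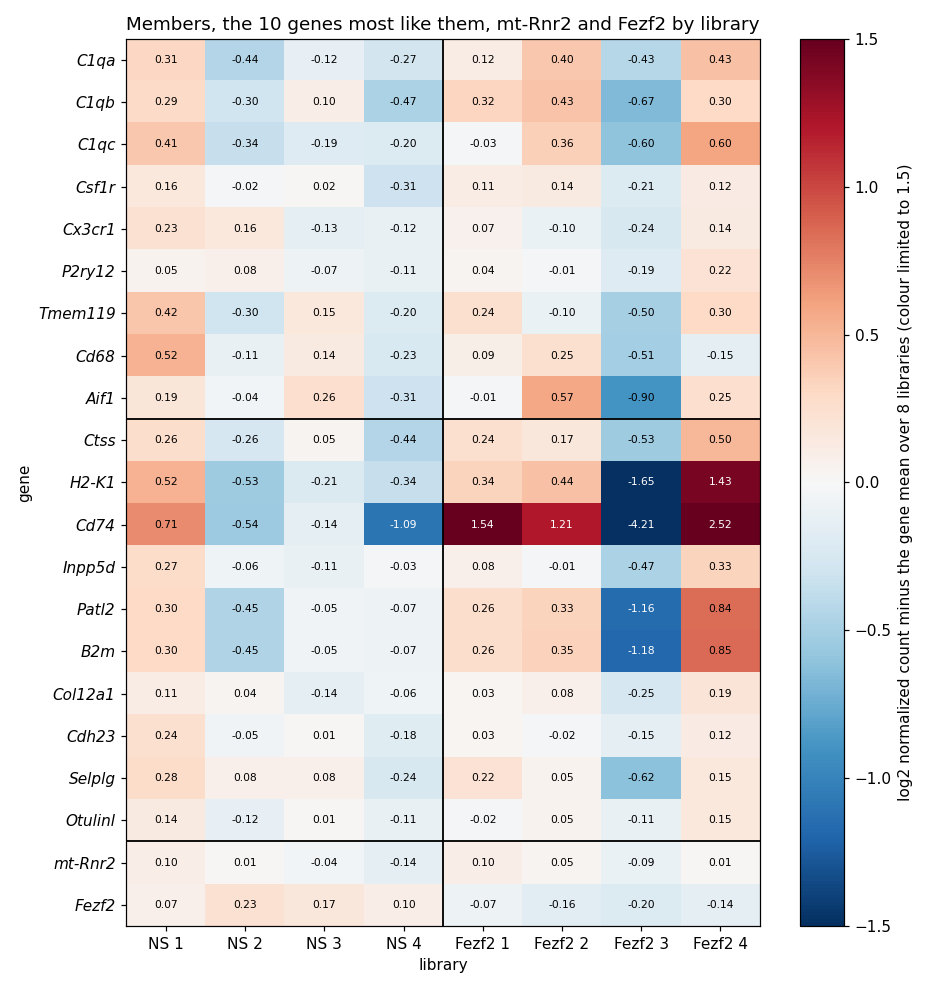
Log2 normalized count minus the gene's mean over the 8 libraries, for the 9 members, the 10 genes most like them, *mt-Rnr2* and *Fezf2* (rows), with NS for *non-silencing shRNA*. The columns of *Fezf2 shRNA* replicate 3 (low) and of control replicate 1 and *Fezf2 shRNA* replicate 4 (high) stand out for most members, and the treatments do not.

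Likeness to the members was measured as Pearson's r, over the 8 libraries, between each gene's log2 CPM and the mean standardized profile of the 7 tested members. It is a description, as the libraries share depth and composition. Of 9952 other genes the most alike was *Ctss* (r = 0.97), the lysosomal protease cathepsin S, with 3087, 2150.2, 2651 and 1895 normalized counts in control replicates 1 to 4 and 3041, 2898, 1774 and 3643 in *Fezf2 shRNA* replicates 1 to 4. Next came *H2-K1* (0.94), *Cd74* (0.93), *Inpp5d* (0.91), *Patl2* (0.90), *B2m* (0.89), *Col12a1* (0.89), *Cdh23* (0.89), *Selplg* (0.89) and *Otulinl* (0.88). *H2-K1* and *B2m* encode the heavy and light chains of MHC class I, and *Cd74* the invariant chain of MHC class II. These genes of antigen presentation had a wider range than any member. *Cd74* had 1468, 615, 814 and 419 normalized counts in control replicates 1 to 4 and 2599, 2064, 47.8 and 5144 in *Fezf2 shRNA* replicates 1 to 4. The highest and lowest libraries of *Cd74* thus differed 108-fold, both of them with *Fezf2 shRNA*. *H2-K1* differed 8.46-fold and *B2m* 4.06-fold between the same 2 libraries. The interval counted for *Patl2* holds all 5398 bp of *B2m*, so these 2 entries share reads. *Ctss*, *Inpp5d* and *Selplg* also belong to the list of microglial identity genes described later. *Selplg*, a ligand of selectins that microglia express, lies 18030 bp from *Tmem119* on the same strand. With the treatment means removed, 2 of these 10 genes (*Ctss* and *Selplg*) were still among the first 10, and all 10 were among the first 100. Each tested member, itself part of the mean profile, followed it with r from 0.74 (*Cx3cr1*) to 0.92 (*C1qb*).

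The sequences upstream of *C1qb* and *Cx3cr1*, the tested members that followed the mean profile most and least, and of *Ctss* are shown because these genes moved together across libraries to different degrees. They are the 250 bases before the start of each gene, from the RefSeq table of GRCm38.p6, in the gene's own direction. Capitals mark GAGGAA, the core of the PU box that the myeloid factor PU.1 is known to bind, searched on both strands.
C1qb (chr4:136886201-136886450, minus strand): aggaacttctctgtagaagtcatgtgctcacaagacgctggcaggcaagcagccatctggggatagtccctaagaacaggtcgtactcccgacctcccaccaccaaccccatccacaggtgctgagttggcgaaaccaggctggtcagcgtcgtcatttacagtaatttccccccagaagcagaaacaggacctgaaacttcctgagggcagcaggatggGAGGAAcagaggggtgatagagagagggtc
Cx3cr1 (chr9:120068297-120068546, minus strand): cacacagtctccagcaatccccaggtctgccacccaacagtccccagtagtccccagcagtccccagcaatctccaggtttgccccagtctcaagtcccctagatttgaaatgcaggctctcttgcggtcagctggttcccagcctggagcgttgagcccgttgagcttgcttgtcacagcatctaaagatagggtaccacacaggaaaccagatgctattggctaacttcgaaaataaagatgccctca
Ctss (chr3:95526536-95526785, plus strand): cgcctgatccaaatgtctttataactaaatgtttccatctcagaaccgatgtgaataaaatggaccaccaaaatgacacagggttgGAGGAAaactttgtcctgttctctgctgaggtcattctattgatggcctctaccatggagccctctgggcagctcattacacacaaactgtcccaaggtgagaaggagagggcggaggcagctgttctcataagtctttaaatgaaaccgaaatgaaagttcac

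*C1qb* and *Ctss* each held the motif 1 time on the gene's strand, and *Cx3cr1* 0 times on either. *P2ry12*, which followed the mean profile with r = 0.85, also held it 0 times on either strand. A link between the motif and the profile was not tested. The table held 6 of the 9 members, and 4 of them had the motif on either strand in the 250 bases, against 23.3% of all 32851 entries. Of the 4, the windows of *C1qc* and *Aif1* lie partly inside an annotated transcript of the gene, by 151 and 16 bases. *C1qa*, *Csf1r* and *Tmem119* are not in the table. A match is a description of the sequence and says nothing of binding.

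Other genes of microglial identity also gave 0 calls. Of 30 further genes of microglial identity, 11 were tested and 0 were called by edgeR or DESeq2, 1 had an unadjusted p under 0.05, and the median log2 fold change was 0.0025. All 30 had more than 1 CPM in 4 or more libraries, counted over intervals that include introns. *Siglech*, a lectin of microglia, had 406 to 480.0 in the controls and 285 to 499 with *Fezf2 shRNA*, a log2 fold change of -0.27 (95% interval -0.60 to 0.07) among genes with more than 1 CPM.

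*Fezf2 shRNA* replicates 1 and 3 stood apart from the other libraries for *Lars2* and *Gm42418*, both named after their values were seen and both known to overlap repeats of ribosomal RNA type. *Lars2* had 975 to 1351 normalized counts in the controls and 43004, 1494, 76972 and 1385 in *Fezf2 shRNA* replicates 1 to 4. *Gm42418* had 4876 to 6219 in the controls and 35665, 5665, 144677 and 6595 with *Fezf2 shRNA*. For the members these 2 libraries were unlike each other, replicate 1 above and replicate 3 below the mean. The part of such sequence in the members' values was not tested. Leaving both libraries out, an alternative chosen after seeing the data, 0 of the 7 members were called, in a fit that called only 1 of 9758 genes. There 2 of the 7 had an unadjusted p under 0.05, *C1qa* with a log2 fold change of 0.52 (unadjusted p 0.016, adjusted p 0.416) and *C1qc* with 0.53 (unadjusted p 0.025, adjusted p 0.46).

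Genes of microglial activation and phagocytosis numbered 27, of which 9 were tested. EdgeR called 0 of them, 3 had an unadjusted p under 0.05, DESeq2 called 1 (*Lgals3bp*) and, among genes with more than 1 CPM, 0, and their median log2 fold change was -0.06. *Apoe*, the lipid carrier that is also abundant in astrocytes, was the most abundant, with a log2 fold change of -0.04 (95% interval -0.26 to 0.19). *Lgals3bp*, a secreted glycoprotein induced by interferon, had 457, 309, 407 and 248 normalized counts in control replicates 1 to 4 and 533, 528, 391 and 693 in *Fezf2 shRNA* replicates 1 to 4. Its log2 fold change was 0.59 (0.13 to 1.05, adjusted p 0.158 in edgeR and 0.0477 in DESeq2). *Gpnmb*, a glycoprotein of lipid-laden phagocytes, had 256, 138, 271 and 77.8 in the controls and 142, 72.4, 46.8 and 37.8 with *Fezf2 shRNA*. The treatments overlapped at a log2 fold change of -1.31 (-2.32 to -0.29, adjusted p 0.21 among genes with more than 1 CPM).

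Lysosomal genes, most of which other brain cells express too, numbered 16 with 14 tested. By edgeR 0 were called, 3 had an unadjusted p under 0.05, DESeq2 called 0, and the median log2 fold change was -0.09, with 4 above 0 and 10 below. *Psap*, the precursor of the saposins, was the most abundant, and *Ctsb*, the protease cathepsin B, had a log2 fold change of -0.17 (95% interval -0.34 to -0.0039, adjusted p 0.244). For complement and its regulators, 9 of 20 genes were tested and 1 was called upward, *Csmd1*, and 0 downward. Of the 9, 4 had an unadjusted p under 0.05, all upward (*Csmd1*, *Csmd2*, *Csmd3* and *Cd46*), and in 3 the treatments did not overlap, against 19.6% and 11.8% of all genes tested. *Csmd1*, a membrane regulator of complement expressed by neurons, had 54853, 64499, 58878 and 49936 normalized counts in control replicates 1 to 4 and 86208, 77736, 85652 and 78136 in *Fezf2 shRNA* replicates 1 to 4. Every *Fezf2 shRNA* library was above every control, with a log2 fold change of 0.52 (0.33 to 0.72, adjusted p 0.0276). *Csmd1* spans 1643 kb, and its call was lost with the offset for gene length, where its log2 fold change was 0.19 (adjusted p 0.323). The call was also lost without control replicate 1 or 4 or without *Fezf2 shRNA* replicate 1, 3 or 4, at log2 fold changes of 0.47 to 0.54 and adjusted p of 0.0608 to 0.0998, and with its most exonic transcript (0.25, adjusted p 0.0728). Its relatives *Csmd2* (0.35) and *Csmd3* (0.34), named after their values were seen, were called by DESeq2 and not by edgeR, and had 0.10 and 0.0023 with the offset. *Cd46*, a membrane regulator of complement also named after its values were seen, had a log2 fold change of 0.31 (unadjusted p 0.037, adjusted p 0.227). *Clu*, the secreted chaperone clusterin, had a log2 fold change of -0.16 (-0.39 to 0.08).

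Fold changes over all genes differed by gene length. Among genes tested, those spanning less than 10 kb (2153 genes) had a median log2 fold change of -0.12 and those spanning 100 kb or more (1704 genes) of 0.18. Of the 7 tested members, 4 span less than 10 kb and 0 span 100 kb or more. With an offset for gene length the log2 fold changes of *C1qa*, *C1qb* and *C1qc* were 0.38, 0.32 and 0.30, with adjusted p from 0.55 to 0.704 in edgeR, while that of *P2ry12* was 0.015 in place of 0.034. The part of gene length in the members' values was not tested.

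Of 16 ligands and signaling genes of the microglial receptors, 9 were tested, 0 were called by edgeR or DESeq2, and 0 had an unadjusted p under 0.05. *Cx3cl1*, the neuronal ligand of CX3CR1, was the most abundant, with 14229.9 to 21248 normalized counts in the controls and 15852 to 20901 with *Fezf2 shRNA*, and a log2 fold change of 0.01 (95% interval -0.27 to 0.28). *Nt5e*, the enzyme that makes adenosine, had 207 to 216 in the controls and 217 to 247 with *Fezf2 shRNA*. Its libraries did not overlap, but its log2 fold change of 0.16 was not called (adjusted p 0.517). *Plcg2*, a signaling lipase of microglia, had a log2 fold change of -0.26 (-0.68 to 0.15).

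Few markers of other phagocytes and of leukocytes passed the filter of 8 CPM. Of 12 genes of border macrophages 1 was tested, *F13a1*, a coagulation factor subunit, with a log2 fold change of 0.30 (95% interval 0.05 to 0.56, adjusted p 0.197), and 0.13 (adjusted p 0.758) with the offset for gene length. The list summed to 1219 to 1545 normalized counts in the controls and 1208 to 1809 with *Fezf2 shRNA*. *Mrc1*, the mannose receptor, named after its values were seen, had 381 to 487 in the controls and 365 to 605.0 with *Fezf2 shRNA*. *Stab1*, a scavenger receptor, had a log2 fold change of -0.48 (-0.97 to 0.02) among genes with more than 1 CPM. Of 11 genes of monocytes and neutrophils 0 passed 8 CPM, 7 had fewer than 10 mean normalized counts, and the neutrophil marker *Ly6g* was at 0 in every library. The list summed to 297 to 569 in the controls and 303 to 499.5 with *Fezf2 shRNA*, most of it *Csf3r* (log2 fold change -0.02), with *Ly6c2* at -0.42 (-0.94 to 0.11). Of 14 lymphocyte genes 10 had fewer than 10 mean normalized counts, the T cell genes *Cd3d*, *Cd3e* and *Cd3g* among them. The most abundant was *Ighm*, the heavy chain of immunoglobulin M, with 656, 706, 555 and 526 normalized counts in control replicates 1 to 4 and 186, 183, 481 and 259 in *Fezf2 shRNA* replicates 1 to 4. Its treatments did not overlap, and its log2 fold change of -1.14 missed the call in edgeR (adjusted p 0.0592) and passed in DESeq2 (0.0223). Without *Fezf2 shRNA* replicate 3, *Ighm* was called at -1.54 (adjusted p 0.0111). The T cell receptor gene *Trbc2*, named after its values were seen, also had more than 1 CPM, with 57.0 to 204 normalized counts in the controls, 86.8 to 167 with *Fezf2 shRNA* and a log2 fold change of -0.0067 (95% interval -0.80 to 0.79). *Cd4* and *Cd8b1*, also named after their values were seen, had means of 32.8 and 10.7 normalized counts over the 8 libraries. Of 12 inflammatory cytokines and their regulators 0 passed 8 CPM and 6 had fewer than 10 mean normalized counts, *Il1b*, *Tnf* and *Il6* among them. *Il18* (-0.03) and *Nfkbia* (-0.22) were the 2 with more than 1 CPM.

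**Figure D4:**
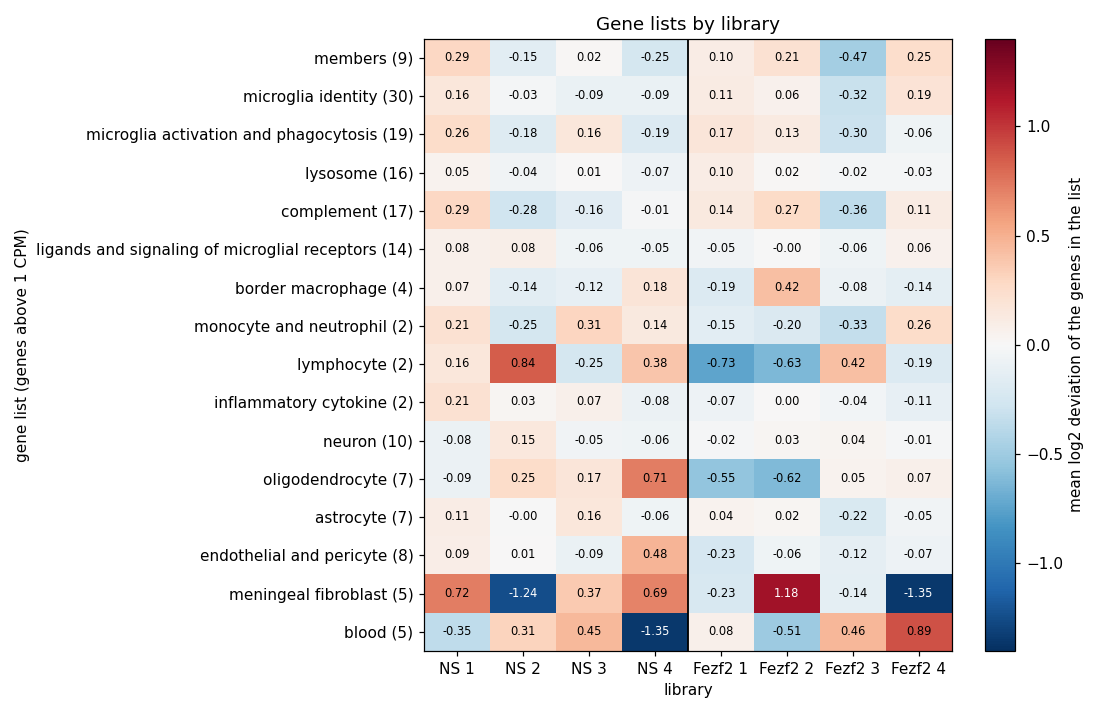
Mean log2 deviation from the 8-library mean of the genes of each list with more than 1 CPM (their number in brackets), by library, with NS for *non-silencing shRNA*. The members are lowest in *Fezf2 shRNA* replicate 3 (-0.47), as are genes of microglial identity (-0.32), of activation and phagocytosis (-0.30) and of complement (-0.36). Genes of monocytes and neutrophils (-0.33) and of astrocytes (-0.22) are also lowest there, whereas neuronal genes stay between -0.08 and 0.15. The value for monocytes and neutrophils rests on 2 genes, and 1 of them, *Csf3r*, was lowest in control replicate 2.

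The astrocyte list, like the members, was lowest in *Fezf2 shRNA* replicate 3, with a mean log2 deviation of -0.22, whereas the neuronal and oligodendrocyte lists were lowest in other libraries. Of the 7 astrocyte genes, *Gfap*, *Aqp4*, *S100b* and *Slc1a3*, named after their values were seen apart from *S100b*, were lowest in that library, with *Gfap* (2303 normalized counts, against 3609 to 7095 in the other libraries) and *Aqp4* (2324, against 3034 to 3793) the furthest apart. *Slc1a2*, the most abundant of the list, was highest there (26568), and the list's summed counts were lowest in control replicate 4 (63674). The median r with the member profile was 0.39 for tested genes of microglial identity, 0.27 for astrocyte genes, -0.08 for neuronal genes and -0.48 for oligodendrocyte genes, beside -0.03 for all genes tested. All 10 neuronal genes were tested and 0 were called by edgeR, with 2 at an unadjusted p under 0.05 and 1 called by DESeq2, *Rbfox3* (log2 fold change 0.28, adjusted p 0.0996 in edgeR). The log2 fold change of *Rbfox3* was -0.00099 with the offset for gene length, and *Snap25* (-0.06) and *Gad1* (-0.10) had 95% intervals that included 0. Of 7 oligodendrocyte genes 0 were called by edgeR, 5 had an unadjusted p under 0.05, and DESeq2 called 2, *Cnp* and, named after its values were seen, *Mog*. Their median log2 fold change was -0.55, and their sum was 63046, 86114, 75444 and 114298 normalized counts in control replicates 1 to 4 and 49535, 46845, 76676 and 76875 in *Fezf2 shRNA* replicates 1 to 4. *Cnp*, an enzyme of myelin, had -0.43 (95% interval -0.74 to -0.13) and *Mbp*, myelin basic protein, -0.31 (-0.83 to 0.20). Members and oligodendrocyte genes were thus low in different libraries.

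Of 7 astrocyte genes 0 were called by either tool, with 1 at an unadjusted p under 0.05 and a median of -0.10. *Slc1a2*, a glutamate transporter, had a log2 fold change of 0.11 and *S100b* -0.18. Of 8 endothelial and pericyte genes 3 were tested and 0 called by edgeR, with 1 under an unadjusted p of 0.05 and 1 called by DESeq2, the pericyte gene *Rgs5* (-0.32, 95% interval -0.48 to -0.15, adjusted p 0.0551 in edgeR). *Rgs5* was called in edgeR only without control replicate 3, at -0.36 (adjusted p 0.0473). Meningeal fibroblast genes varied most, with sums of 1751, 459, 1319 and 1638 in control replicates 1 to 4 and 887, 2158, 885 and 411 in *Fezf2 shRNA* replicates 1 to 4, 0 of 6 past 8 CPM, and overlapping treatments for *Igf2* (-0.20), *Dcn* (-0.44) and *Slc6a13* (0.11). Of 5 genes of red blood cells 0 were called by either tool and 1 had an unadjusted p under 0.05. Their sums were 2782, 4536, 5088 and 1447 in the controls and 3737, 2531, 4971 and 6713 with *Fezf2 shRNA*, led by *Hbb-bs* (log2 fold change 0.34, -0.63 to 1.31), with *Alas2* at 0.34 (0.04 to 0.64). *Fezf2 shRNA* replicate 4, high for the members, had the least meningeal signal and the most of blood, and control replicate 1, also high for the members, had high meningeal signal and low blood. The part of either in the members' values was not tested.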

How the data were processed

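Total RNA from M1 was sequenced from 8 samples (4 per treatment). The raw counts, whole read counts per Ensembl transcript, were deposited by the authors, who aligned reads to mm10 with TopHat2 2.1.1 and counted them with bedtools 2.26.0. Their table of DESeq2 results was not used. Of 94647 transcripts 91320 matched GENCODE M21, and 1 transcript per gene, that with the lowest Ensembl number, was kept.

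Genes above 8 CPM in 4 or more libraries were tested with edgeR 4.0.16 in R 4.3.3 (TMM, quasi-likelihood F-test, Benjamini-Hochberg over all genes tested). Likeness used log2 CPM with a prior count of 2. Alternatives were DESeq2 1.42.0, other normalizations, filters and transcripts, a replicate block, a length offset (loess, span 0.3) and leaving out libraries. Figures and tables used Python 3.11.15 with pandas 2.3.3, and the steps were tested on simulated data. Library totals were 54684016 to 58003814 counts, and the spread within treatments was larger than counting error for each of the 7 members tested. Members and gene lists were chosen with earlier results of these data known. Named genes are the members, *Fezf2*, per list each called gene, the most abundant and the one with the smallest p in each direction, and the 10 most like the members. A gene that this rule names can be left out of the text while it still counts in its lists.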

Additional observations from a re-analysis of the deposited data

Results flagged for a closer look

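The members, named genes and list sums in each treatment were examined for a single library far from the others, in 140 groups of 4 libraries. Of these groups 4 stood out. The share of about 5% that chance gives holds for independent groups. These groups share libraries, and the list sums share reads with the genes, so no conclusion is drawn from it. *C1qb* was lowest in *Fezf2 shRNA* replicate 3, at 504 normalized counts. *Csf1r* was lowest in the same library, at 2236. *C1qc* was highest in control replicate 1, at 835. The astrocyte gene *Slc1a2* was highest in *Fezf2 shRNA* replicate 3, at 26568. Of the 4, 3 are members, and the libraries are those in which most members were low or high.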

How the results depend on the processing

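The count of members called was 0 under each alternative run: other normalizations, filters, transcripts and tools, the replicate block, the length offset, no minimum fold change, each library left out, and, chosen after seeing the data, without *Fezf2 shRNA* replicates 1 and 3. The median log2 fold change of the members stayed within 0.0047 and 0.16, from 0.08, and was 0.08 with the replicate block. The sample labels do not say whether the replicate numbers pair the samples. Deviations of same-numbered libraries correlated at -0.13 to 0.31, and those of other-numbered libraries at -0.23 to 0.27. These few overlapping values cannot decide it. *C1qc* could not be tested with its most exonic transcript. Of the 10 genes most like the members, 2 were still among the first 10 with treatment means removed.

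Some fold changes changed sign, and the cause was not tested. *P2ry12* was -0.010 with its most exonic transcript. *Aif1* was -0.036 with its widest transcript and -0.026 with the replicate block. With the length offset *Tmem119* was 0.077, *Apoe* 0.068, *Csf3r* 0.020, *Il18* 0.054 and *Rbfox3* -0.00099. With length offset and replicate block *Tmem119* was 0.075, *Apoe* 0.069, *Csf3r* 0.029, *Il18* 0.052 and *Slc6a13* -0.22, which was -0.20 with the block alone. Without *Fezf2 shRNA* replicates 1 and 3 *Tmem119* was 0.066, *Apoe* 0.025 and *Csf3r* 0.066. *Cx3cl1* was -0.018 with library totals, and with the most exonic transcript *Csf3r* was 0.0044 and *Snap25* 0.0082. With each library left out in turn, the ranges were -0.0031 to 0.16 for *Csf1r*, -0.037 to 0.10 for *P2ry12*, -0.14 to 0.12 for *Tmem119*, -0.28 to 0.0069 for *Cd68* and -0.19 to 0.25 for *Aif1*. They were -0.12 to 0.041 for *Apoe*, -0.081 to 0.11 for *Cx3cl1*, -0.15 to 0.13 for *Csf3r*, -0.079 to 0.035 for *Il18*, -0.69 to 0.089 for *Igf2* and -0.68 to 0.43 for *Slc6a13*. *C1qa* ran from 0.17 to 0.44, *C1qb* from 0.11 to 0.42 and *C1qc* from 0.012 to 0.39.

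With 4 libraries per treatment and this spread, the 95% intervals of the C1q genes include log2 differences of up to 0.73, and *Cd68* and *Aif1* rest on 64 to 304 reads per library.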

Other observations

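Several complement genes outside the named ones varied widely by library, and those given here were chosen after their values were seen. *C3*, the central complement component, had 462, 35.1, 58.0 and 113 normalized counts in control replicates 1 to 4 and 270.5, 405, 18.9 and 162 in *Fezf2 shRNA* replicates 1 to 4. *C4b*, a component of the classical cascade downstream of C1q, had 1872, 863, 1845 and 1216 in the controls and 1758, 1246, 636 and 3124 with *Fezf2 shRNA*. Both were lowest in *Fezf2 shRNA* replicate 3, the library lowest for most microglia and phagocyte genes, and the treatments overlapped for both. *Serping1*, an inhibitor of C1, varied 7.34-fold and was lowest in control replicate 2, and *C1ra*, a protease of the C1 complex, varied 4.54-fold and was lowest in control replicate 3.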
